A study of Saccharomyces cerevisiae with 9 samples.

Results

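In budding yeast many genes stand head to tail on the same strand, with a short stretch of DNA between the end of one coding gene and the start of the next. The regions described here are those stretches, chosen from the annotation alone: the next protein-coding feature in the direction of transcription lies on the same strand, with a gap of 0 to 300 nt. There were 890 such tandem pairs among 6046 intervals between neighbouring coding features. The median gap was 231 nt (quartiles 184 and 268). Gaps of over 200 nt made up 610 pairs, gaps of over 100 and up to 200 nt made up 199, and gaps of up to 100 nt made up 81. Of the pairs, 405 lay on the plus strand and 485 on the minus strand, and in 793 both genes are in the R64 reference annotation. In 188 cases a gene was the upstream gene of one pair and the downstream gene of another.

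In such a gap the transcript of the first gene, made by RNA polymerase II, can be cleaved and polyadenylated before the start of the second gene. Cleavage factor IA, of which Rna15 is the subunit that binds RNA, and the cleavage and polyadenylation factor recognise A-rich and U-rich elements past the stop codon, cut the transcript and let Pap1 add the poly(A) tail. Where cutting fails, the polymerase runs on, and the transcript can end at the poly(A) site of the next gene, which gives an RNA that spans both genes.

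The data are 3′ ends of transcripts in total RNA of Saccharomyces cerevisiae, read by Oxford Nanopore direct RNA sequencing, in which each read begins at the poly(A) tail. There were 3 groups of 3 libraries, each after 2 h of rapamycin. The double depletion (Bdp1AA Rna15AA) was HHY168 fpr1delta::hphMX4 with BDP1-FRB::kanMX6 and RNA15-FRB::His, the single depletion (Bdp1AA) carried BDP1-FRB::kanMX6 alone, and the WT group was HHY168 fpr1delta::hphMX4 with no FRB fusion. HHY168 is the parent strain for anchor-away with the ribosomal protein Rpl13A as anchor: rapamycin ties an FRB-tagged protein to it and takes that protein out of the nucleus. All groups therefore share the strain, the labelled FPR1 deletion and the rapamycin, and they differ in the tags. Bdp1 is a subunit of TFIIIB, which places RNA polymerase III at tRNA genes. The double depletion against Bdp1AA thus asks what the removal of Rna15 adds, and Bdp1AA against WT what the removal of Bdp1 does.

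The libraries of a group are pooled in 1 deposited column, so no spread between libraries could be computed. No test was possible, and intervals are exact 95% counting intervals. After 1 common minimum signal per position, downstream ends came to 7020861 reads in the double depletion, 14096898 in Bdp1AA and 22048431 in WT. A position had to hold 11, 17 and 20 reads in these tables to be kept, so a gene shown with 0 reads in a place may have had a few ends there. The tagged genes were checked in each table. RNA15 had 382 reads inside the gene and none past it in the double depletion, against 143 and 380 past it in Bdp1AA and WT. BDP1 had no end past it in either depletion, against 298 in WT. FPR1, labelled as deleted in all groups, had no end listed in either depletion and 30 reads in WT, so directions against WT are against a group that departs from its label at this gene. FPR1 and BDP1 are themselves downstream genes of pairs.

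Of the 890 upstream genes, 620 had an end listed past the gene in the double depletion, 722 in Bdp1AA and 771 in WT, and 84 had none in any group. At least 60 reads, the minimum for a share, were present for 398, 625 and 719 upstream genes in that order. All groups met it in 373 pairs. Ends of the upstream gene were sorted into those before the downstream gene, inside it and past its far end. Every listed position of an upstream gene past its downstream gene was also listed under the downstream gene with at least as many reads. Before the common minimum these were 959 positions in the double depletion, 1856 in Bdp1AA and 750 in WT. The Bdp1AA table lists positions from 2 reads and the others from 11, so these numbers are not compared between groups. An end past both genes is thus counted under both. After the common minimum, positions inside the downstream gene were listed under it as well on the minus strand, for 34 of 326 in the double depletion, 40 of 313 in Bdp1AA and 370 of 370 in WT, and on the plus strand for none. The tables hold no read starts, so a transcript that began in the upstream gene and one of the downstream gene with a leader long enough to overlap the upstream gene cannot be told apart.

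The sequences on either side show how close the genes of a pair can stand. The stop codon of the upstream gene and the start codon of the downstream gene are in capitals, each line is 30 bases of the R64 build read in the direction of transcription, and the first downstream feature is absent from the reference annotation.
RPL21A junction, gap 8 nt (chrII:607130-607159, plus strand): ctttcatcTAAtttacccgATGctggtttt
PSP1 and SPG3 junction, gap 0 nt (chrIV:1456680-1456709, minus strand): gaattatttcatTAAATGatctgttatttc
No 3′ end of PSP1 can lie between the genes of the second junction, and that of RPL21A would have 8 bases to fall in.

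For the pairs whose results are described below, the most used end in the gap in Bdp1AA and the most used end past the downstream gene in the double depletion are shown with 25 bases before and 4 bases after the last base of the RNA, which is in capitals.
TEF2, end in the gap, 87 nt past TEF2 (chrII:479109-479138, plus strand): aattaagtatttttatctatctgctTatca
TEF2, end past MUD1, 1422 nt past TEF2 (chrII:480444-480473, plus strand): aaataatacagttctcattgcagtaAataa
PDI1, end in the gap, 98 nt past PDI1 (chrIII:48551-48580, minus strand): ataaaaagataaacgttaaaattcaAacac
PDI1, end past MGR1, 1717 nt past PDI1 (chrIII:46932-46961, minus strand): aataactaatacctacattcatatcAacac
ENO2, end in the gap, 118 nt past ENO2 (chrVIII:452733-452762, plus strand): ttaggtttaaaaattgatacagtttTataa
ENO2, end past CTR2, 1041 nt past ENO2 (chrVIII:453656-453685, plus strand): tattggctacagcctcagtaatcaaAatag
YGR210C, end in the gap, 96 nt past YGR210C (chrVII:913403-913432, minus strand): gctccctacaaggtggctcttttctTacta
YGR210C, end past TRX2, 673 nt past YGR210C (chrVII:912826-912855, minus strand): ttttaaaaagaaactctattacatcTatct
PTA1, end in the gap, 76 nt past PTA1 (chrI:58615-58644, minus strand): acttgcaaatcaatgttttatctatCattc
PTA1, end past GCV3, 827 nt past PTA1 (chrI:57864-57893, minus strand): aataaaacaataaactcaacgtgtaCactt
The gap end of PTA1 held 0 reads in the double depletion, 124 in Bdp1AA and 241 in WT. The end past GCV3 held 53 reads listed under PTA1 in the double depletion and none in either other group, while under GCV3 the same position held 538, 2625 and 1396 reads in the double depletion, Bdp1AA and WT. The end past TRX2 held 145 reads listed under YGR210C in the double depletion and 0 in both other groups, while under TRX2 it held 8159, 4523 and 3966 reads in the same order. The distant ends were thus poly(A) sites that the downstream gene already used in WT.

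In WT nearly all gaps of over 200 nt contained the ends of the upstream gene, and nearly all gaps of up to 100 nt did not. Of 719 upstream genes with at least 60 reads in WT, 591 had at least 90% of their ends before the downstream gene, 94 had at least 90% inside or past it, and 34 lay between. With a gap of 0 to 100 nt, 50 of 58 upstream genes had at least 90% of their ends inside or past the downstream gene. With a gap of over 200 nt, 16 of 514 did. In Bdp1AA the same sorting gave 526, 70 and 29 of 625 upstream genes. In the double depletion it gave 251, 63 and 84 of 398, so a smaller part of the upstream genes kept nearly all their ends in the gap there.

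Where the ends lay before the downstream gene, they sat early in the gap. The most used end of those 591 genes in WT was a median of 88 nt past the upstream gene (quartiles 66 and 116), which left a median of 149 nt to the downstream gene. In Bdp1AA the median was 91 nt over 526 genes, and in the double depletion 99 nt over 251. The element TATATA, a form of the efficiency element of yeast poly(A) sites, stood within 60 nt before the most used WT end in 37.9% of these genes and in 37.3% of 4322 other coding genes. AATAAA stood there in 14.7% of these genes and in 16.2% of the others. Both motifs were searched on the strand of the gene in the same 60 nt window, where a match of one may overlap a match of the other. The bases of the window were 35.9% A and 37.2% T in these genes and 37.8% A and 37.4% T in the others. Short tandem gaps thus had end regions of near the same composition as other genes.

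In the 373 pairs compared in all groups, transcripts of the upstream gene ended past the downstream gene far more often in the double depletion. The mean share over pairs that ended past it was 14.8% in the double depletion, 4.49% in Bdp1AA and 4.35% in WT. The mean share inside it was 8.60%, 7.97% and 7.98% in the same order, so inside ends hardly moved on average over pairs, while the share before it was 76.6%, 87.5% and 87.7%. Summed over reads, the share inside was 11.2%, 5.61% and 5.47% in the same order. The summed share past it was 6.30%, 3.89% and 4.67%. Abundant genes weigh most in these sums: HYP2 alone gave 49555 of the 80512 reads inside in the double depletion. Any end past the downstream gene was listed in 150 pairs in the double depletion, and in 21 pairs in Bdp1AA and in WT each. Most ends were inside or past the downstream gene in 79 pairs in the double depletion, 47 in Bdp1AA and 46 in WT.

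**Figure D1:**
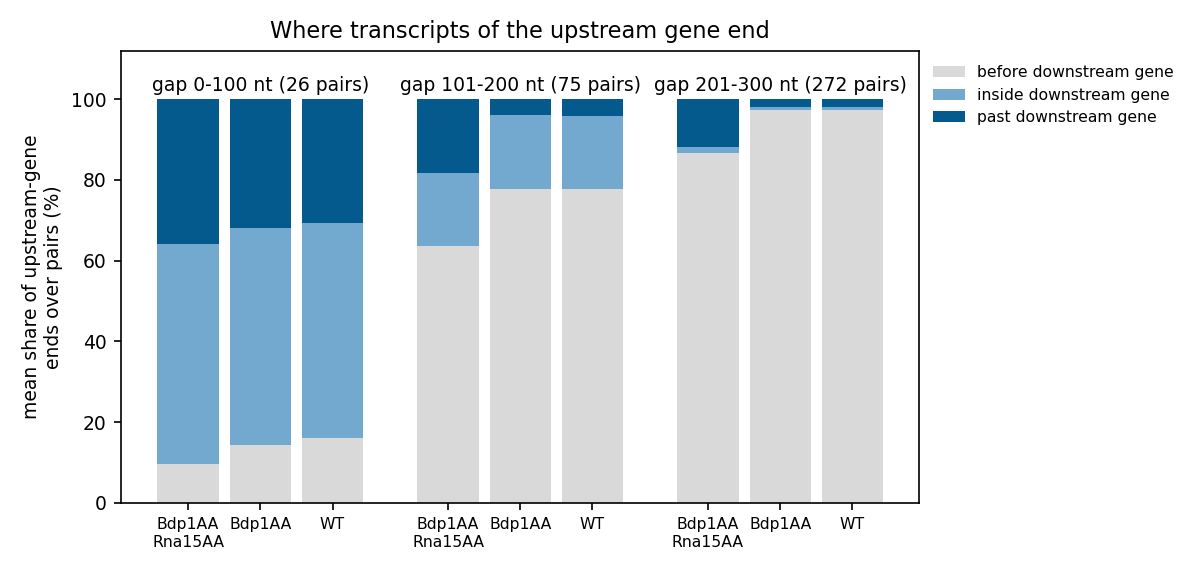
Mean share of upstream-gene ends before, inside and past the downstream gene (y axis, %) in 373 pairs with at least 60 reads in all groups, by gap length and group (x axis), 1 pooled column per group and no error bars. The dark part, ends past the downstream gene, is 11.8%, 2.01% and 1.91% for gaps of over 200 nt and 18.2%, 4.01% and 4.05% for gaps of over 100 and up to 200 nt in the double depletion, Bdp1AA and WT.

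The plot of shares by gap length shows that this held for each gap class of over 100 nt. With a gap of over 200 nt (272 pairs), ends past the downstream gene averaged 11.8% in the double depletion, 2.01% in Bdp1AA and 1.91% in WT. With a gap of over 100 and up to 200 nt (75 pairs) they averaged 18.2%, 4.01% and 4.05% in the same order. With a gap of up to 100 nt (26 pairs) they averaged 35.9%, 31.8% and 30.7%, and the share before the downstream gene was already low, at 9.70%, 14.2% and 15.9%.

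**Figure D2:**
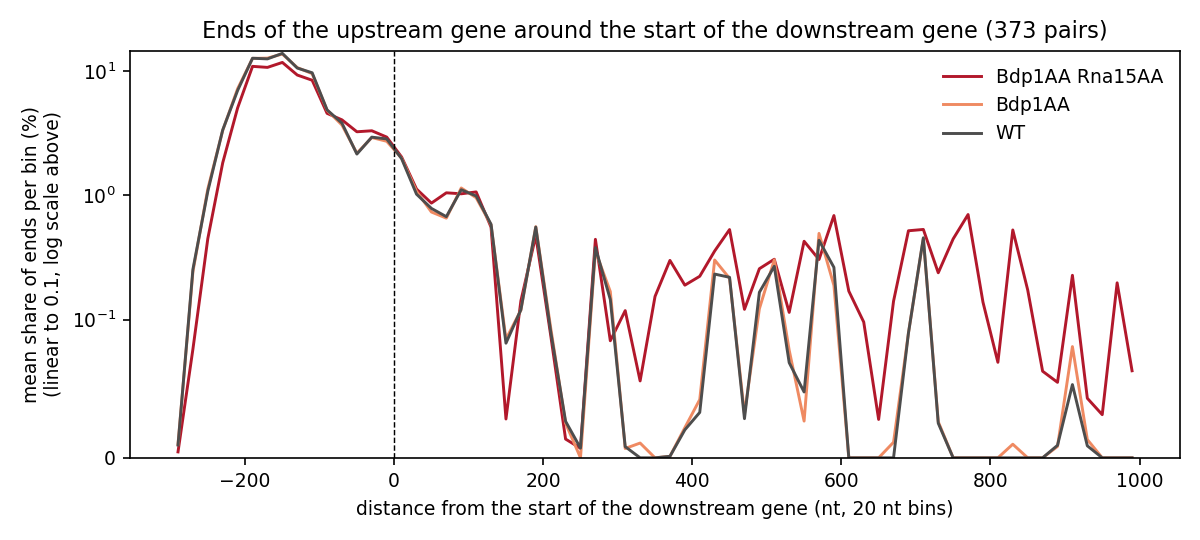
Mean share of upstream-gene ends in 20 nt bins (y axis, %, linear to 0.1 and logarithmic above) against the distance from the start of the downstream gene (x axis, nt), over 373 pairs, 1 line per group. The lines of Bdp1AA and WT nearly coincide, and the line of the double depletion lies below them at the start of the gap and above them in most bins from 300 nt past the start.

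Pair by pair, the double depletion moved ends in 1 direction. Against Bdp1AA, 87 of 373 pairs gained at least 10 percentage points of ends inside or past the downstream gene (23.3%, interval 19.1 to 28.0%), and 0 lost as much. Over all same-strand neighbours at any gap, which include these pairs, the share with such a gain was 16.5% and with such a loss 0%. In 224 pairs the share changed by less than 1 percentage point, so the mean change of 10.9 percentage points came from a minority of pairs. Summed over pairs, 17.5% of 719228 reads reached the downstream gene in the double depletion, against 9.49% of 1508316 in Bdp1AA. That sum rests on a few abundant genes: without RPL21A, HYP2 and MIN10 the difference of 8.00 percentage points was 5.77, and without pairs that have an overlapping feature at the end of the upstream gene it was 4.86. A lower share in the double depletion was seen in 4 pairs, none past the limit: SBH1 had 6.74% in the double depletion and 13.0% in Bdp1AA, ARO7 0% and 4.64%, ROX3 0% and 4.47%, and MPM1 68.4% and 70.1%. Pairs just inside the limit were RAD27 with a gain of 10.3 percentage points, KTI12 with 10.9 and CDC31 with 11.1. Just outside were ATX1 with 9.48, YMR027W with 9.47 and MDL2 with 9.30.

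**Figure D3:**
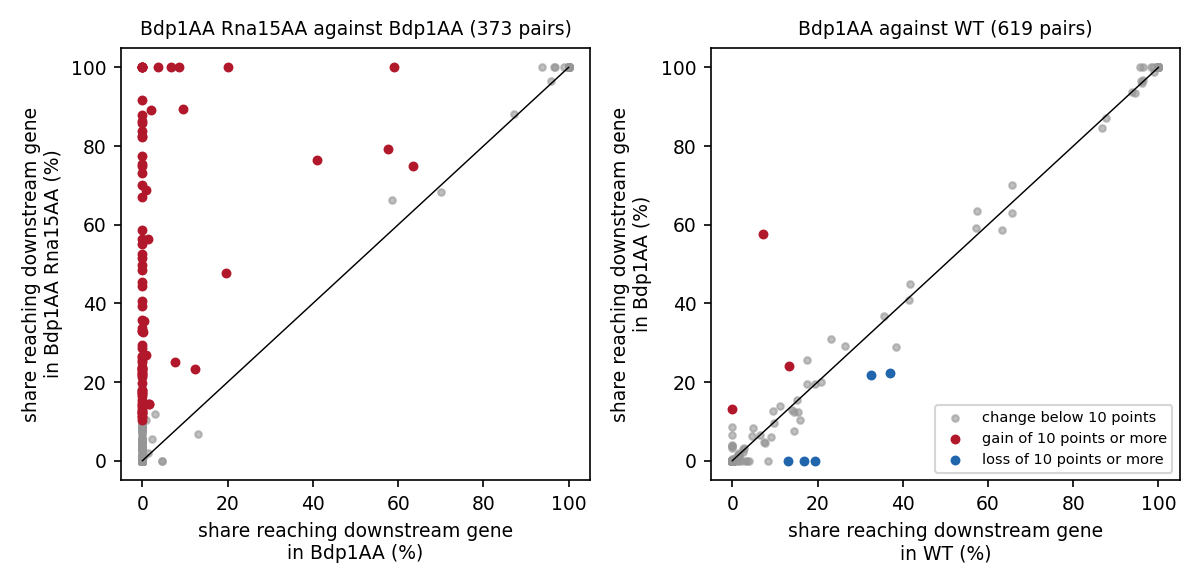
Share of upstream-gene ends inside or past the downstream gene (%), 1 point per pair with at least 60 reads in both groups: the double depletion against Bdp1AA on the left (373 pairs) and Bdp1AA against WT on the right (619 pairs), with the line of equal shares. Red points, 87 on the left and 3 on the right, gained at least 10 percentage points, and blue points, 0 and 5, lost as much.

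The mean 3′ end of the upstream gene moved at least 20 nt downstream in 176 of 373 pairs and at least 20 nt upstream in 1. Over all coding genes the shares were 42.4% and 0.715%. The median shift was 15.2 nt in these pairs and 12.9 nt over all coding genes. In 176 pairs with all listed ends before the downstream gene in both groups the median shift was 3.28 nt (quartiles 0.73 and 11.4 nt), and 33 of them moved by 20 nt or more. These pairs were picked by where their ends lay, which limits how far the shift could go.

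In 69 of the 87 gained pairs more reads ended past the downstream gene than inside it, though the summed reads were divided about evenly. Of 103686 reads of these upstream genes in the double depletion, 12924 ended inside the downstream gene and 12612 past it, with the reads inside including 3435 of TEF2 and 2683 of RPL13B. Of the reads past it, 94.2% lay within 25 nt of a position that WT listed for the downstream gene. More than 50% of the ends reached the downstream gene in 35 of these pairs in the double depletion and in 3 in Bdp1AA, and in 10 pairs all listed ends did.

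Those 10 upstream genes had 62 to 446 reads in the double depletion. PTA1, which encodes a part of the 3′ end cleavage machinery itself (YAL043C, chromosome I, 58695 to 61052, minus strand), lies 232 nt before GCV3, which encodes the H protein of glycine decarboxylase. Its reads before, inside and past GCV3 were 0, 0 and 97 in the double depletion, 274, 0 and 0 in Bdp1AA, and 641, 0 and 0 in WT. The share that reached GCV3 was thus 100% in the double depletion (interval 96.3 to 100%) and 0% in Bdp1AA (0 to 1.34%). YGR210C (chromosome VII, 913503 to 914738, minus strand) lies 275 nt before TRX2, the gene of a cytoplasmic thioredoxin, and had 0, 0 and 446 reads in the double depletion, 621, 0 and 0 in Bdp1AA, and 1413, 0 and 0 in WT. CAB4, an enzyme of coenzyme A synthesis, had all of 90 reads past the exonuclease gene RNH70 in the double depletion, against 590 reads before it in Bdp1AA and 701 in WT. In each of these pairs the double depletion did not overlap the other groups: no listed end remained in the gap. NCS6, which acts in thiolation of tRNA, and YND1, an apyrase of the Golgi, showed the same, with 62 reads past the Rab gene YPT32 and 78 past NUG1, a GTPase gene of ribosome assembly. At the common minimum both had all their Bdp1AA reads in the gap, 292 for NCS6 and 127 for YND1. In WT 23 of 648 and 30 of 363 reads lay inside the next gene. With the minimum as deposited, the gains against Bdp1AA were 93.3 percentage points for NCS6 and 88.6 for YND1. Part of their Bdp1AA ends thus reached the next gene and fell below the common minimum.

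Other large gains left part of the ends in place or began above 0. OAZ1, the ornithine decarboxylase antizyme, had 19 reads before and 208 past the GTPase gene ARL3 in the double depletion, against 288 before it in Bdp1AA and 484 in WT. PHS1, a dehydratase of fatty acid elongation, had 13 reads before and 95 past the mitochondrial ribosomal protein gene MRPL49 in the double depletion, against 1564 before it in Bdp1AA and 2137 in WT. YKE4, a zinc transporter, had all of 154 reads past ATG45 in the double depletion, against 369 before and 35 past in Bdp1AA and 636 before in WT. TMT1, a methyltransferase, had all of 81 reads past the glutaredoxin gene GRX4 in the double depletion. In Bdp1AA it had 2096 before and 80 past, and in WT 76 before, so the level of TMT1 itself differed widely between the groups. At the tagged locus, YNL040W had 69 reads inside BDP1 in the double depletion, 411 before and 29 inside in Bdp1AA, and 571 before in WT. All 69 lay at 1 position, 2078 nt past YNL040W and near the far end of BDP1 (gap 297 nt, length 1785 nt). That pair is set apart, since the allele after BDP1 is not that of WT in either depletion. Whether the position is a true 3′ end was not tested. The pair is counted among the 87 gains and the 10 pairs with all listed ends in the downstream gene. Without tagged and deleted genes, 86 of 371 pairs gained. OAZ1, PHS1, YKE4, TMT1 and YNL040W, with the 5 pairs of complete moves named before them, had the largest gains of share.

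**Figure D4:**
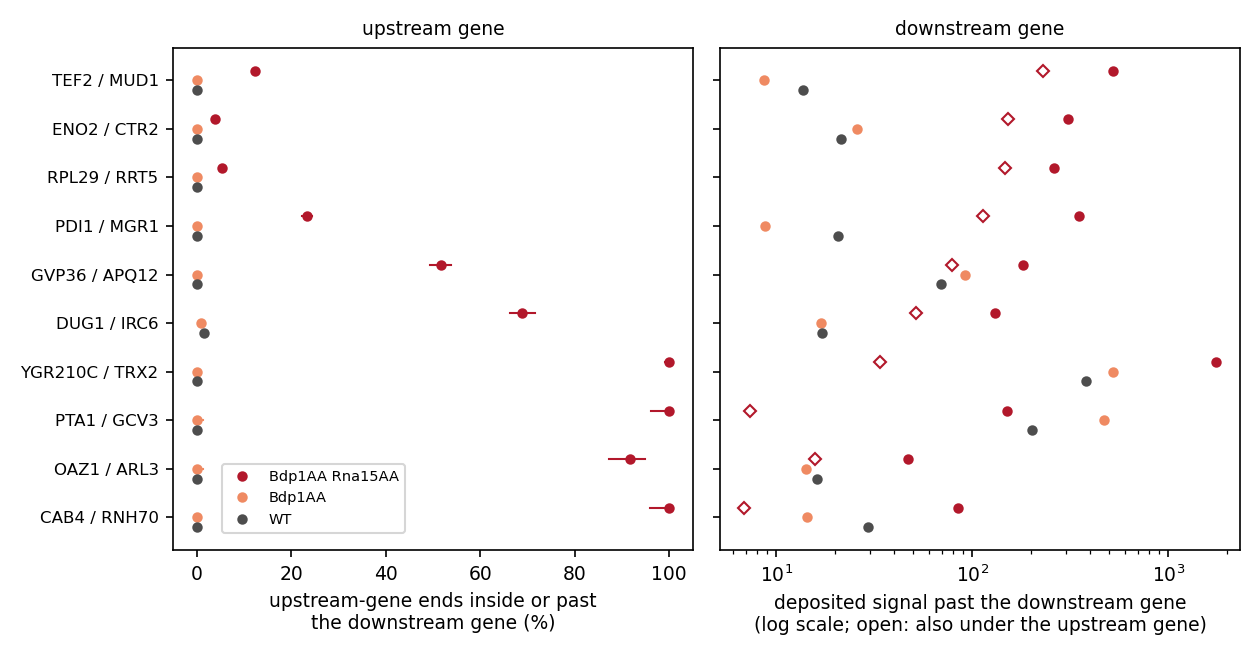
Left: share of upstream-gene ends inside or past the downstream gene (%, points with exact 95% counting intervals) in 10 pairs, for the double depletion, Bdp1AA and WT. Right: deposited signal past the downstream gene (log scale), with the part also listed under the upstream gene as open diamonds. RRT5, with no listed end in Bdp1AA and WT, has a point for the double depletion alone. The double depletion is to the right in all 10 pairs on the left, from 3.84% for ENO2 to 100% for 3 genes.

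For the most abundant upstream genes the share that ran on was smaller but the number of reads was large. TEF2, one of the genes of elongation factor eEF1A (YBR118W, chromosome II, 477671 to 479047, plus strand), lies 290 nt before MUD1, which encodes a protein of the U1 snRNP. It had 45873 reads before, 3435 inside and 3011 past MUD1 in the double depletion, a share of 12.3% (interval 12.0 to 12.6%) that reached MUD1. In Bdp1AA it had 131058 reads and in WT 224417, all before MUD1. ENO2, the gene of the glycolytic enzyme enolase, had 51585 reads before, 54 inside and 2007 past the vacuolar copper transporter gene CTR2 in the double depletion (3.84%, interval 3.68 to 4.01%), against 130990 and 230464 reads in Bdp1AA and WT, all in the gap. The ribosomal protein gene RPL29 had 33978 reads before and 1927 past RRT5 in the double depletion (5.37%), against 132715 and 201689 reads in the gap in Bdp1AA and WT. RPL28 had 1.28% of 24769 reads and RPL10 0.526% of 39197 reads inside or past the next gene in the double depletion, against 0 of 66830 and 0 of 59955 reads in Bdp1AA. Both were below the limit of 10 percentage points, as were ENO2 and RPL29.

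Several genes of moderate to high abundance gained more; these were chosen after their values were seen. PDI1, the protein disulfide isomerase of the endoplasmic reticulum, had 4910 reads before and 1489 past MGR1 in the double depletion (23.3%, interval 22.2 to 24.3%), against 4730 and 8140 reads before MGR1 in Bdp1AA and WT. GVP36 had 974 reads before and 1041 past APQ12 in the double depletion (51.7%), against 2997 and 3848 before it in Bdp1AA and WT. DUG1, a peptidase of glutathione breakdown, had 383 reads before, 168 inside and 682 past IRC6 in the double depletion (68.9%), against 0.846% in Bdp1AA and 1.43% in WT that reached IRC6. Abundance in Bdp1AA made little difference: of 321 pairs with at most 10% of their ends inside or past the downstream gene in Bdp1AA, split in 4 by reads of the upstream gene, 24.7%, 23.8%, 25% and 26.3% gained from the lowest to the highest class.

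In some abundant pairs no end was listed inside or past the next gene in the double depletion or Bdp1AA. RPS13 had 10103 reads in the double depletion and 33777 in Bdp1AA, all before RRG1. CYS3, which makes cysteine, had 12458 reads in the double depletion and 4502 in Bdp1AA, all before SWC3.

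Ends past the downstream gene are also counted under it, and the gained pairs were picked by such ends or by ends inside it. A rise in shared ends in gained pairs thus follows in part from that choice. For 70 gained pairs whose downstream gene had at least 60 reads in all groups, a mean of 15.6% of the downstream gene's ends were also listed under the upstream gene in the double depletion, against 0.79% in Bdp1AA and 0.0069% in WT. The medians were 10.9%, 0% and 0%. Over all 426 pairs, gained or not, the means were 7.54% in the double depletion, 2.40% in Bdp1AA and 4.26% in WT, and the medians 0%. MUD1 had 6907 reads past its end in the double depletion, 43.6% of them also under TEF2, against 169 in Bdp1AA and 318 in WT, none of them under TEF2. CTR2 had 4084 reads in the double depletion, 49.1% of them also under ENO2, against 506 and 495 in Bdp1AA and WT. RRT5 had 3425 reads, 56.3% of them also under RPL29, and was not listed in either other group. MGR1 had 4635 reads, 32.1% of them also under PDI1, against 171 in Bdp1AA and 482 in WT. How reads were assigned to genes is not given. If a read is listed under each gene that it overlaps, these shares count only reads long enough to overlap both genes.

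Levels were taken as the log2 ratio of signal past the gene relative to the median gene, called at 2-fold. Over all downstream genes of pairs, 104 of 427 were higher and 117 lower in the double depletion than in Bdp1AA, against 23.1% and 26.3% of all coding genes, so as a whole they stayed near the background. On the deposited scale, not centred, 75 were higher and 150 lower. Among the same 321 pairs, the downstream genes of 80 gained pairs had a median log2 ratio of 0.88 (69 with a level) and those of 241 other pairs −0.04 (103 with a level). Of the first set 33 were higher and 13 lower, and of the second 23 and 30. These levels include the shared reads, by which gained pairs were in part picked, so a higher level there follows in part from that choice. With the reads shared with the upstream gene subtracted, an alternative added after the data were seen, the medians were 0.41 and −0.16. With the positions listed under a single gene alone, they were −0.30 and −0.22. That measure left a position out only in the group where it was shared. A site of the downstream gene shared in the double depletion alone was thus left out there and kept in Bdp1AA. The choice of gained pairs lowers their value on this measure, so no direction is read from it. The upstream genes had a median log2 ratio of −0.81 in the gained pairs and 0.09 in the others.

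Single downstream genes differed in how far the shared reads went. MUD1 had a log2 ratio of 6.26 in the double depletion against Bdp1AA, 5.45 with the reads under TEF2 subtracted and 2.10 from positions listed under MUD1 alone. CTR2 had 3.92, 2.96 and 0.10 on the same 3 measures. TRX2 had 2.08, 2.07 and −0.35, and 1.93% of its ends in the double depletion were also listed under YGR210C. The third measure left a position out only in the group where it was shared. The TRX2 position printed above, with 8159 reads, was left out in the double depletion, where 145 reads were also under YGR210C. In Bdp1AA it held 4523 reads, and none was under YGR210C. The third measure thus does not compare the same positions, and its sign is not read as a direction. ARL3 had 2.05, 1.47 and −0.06, and MRPL49 1.05, 0.91 and −0.42. GCV3 was lower than in Bdp1AA, at −1.31, although 4.89% of its ends were also under PTA1. It was not lower than in WT: its log2 ratio was 0.43 in the double depletion against WT and 1.73 in Bdp1AA against WT.

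The gained pairs differed from the other pairs of the same 321 in length more than in the end region. The downstream gene had a median length of 731 nt in the gained pairs and 1272 nt in the others, and the gap a median of 232.5 nt and 254 nt. Of pairs whose downstream gene was at most 1140 nt long, 35.4% gained, and of those with a longer one 14.4% did. If a read is listed under each gene that it overlaps, one ending past the downstream gene has to span all of it to count for the upstream gene. The part of length in the result was not tested. In the longer class the gained pairs had a median downstream log2 ratio of 1.79 (17 of 23 pairs with a level) and the others 0.06 (46 of 137). In the shorter class the medians were 0.44 (52 of 57) and −0.15 (57 of 104). These levels include the reads shared with the upstream gene, by which gained pairs were in part picked. A higher level in gained pairs thus follows in part from that choice, and these medians were not computed with the shared reads subtracted. With gaps of over 100 and up to 200 nt 34.5% of 55 pairs gained (interval 22.2 to 48.6%), and with gaps of over 200 nt 23.1% of 264 (18.2 to 28.7%), which overlap. TATATA stood before the most used WT end in 33.8% of gained pairs and 39.0% of the others, and AATAAA in 15.0% and 18.3%.

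The short gaps were set beside the nearest kinds of neighbours. Of tandem pairs with a gap of over 300 and up to 1000 nt, 16% of 788 gained 10 percentage points inside or past the downstream gene in the double depletion against Bdp1AA (interval 13.5 to 18.7%), a lower share than the 23.3% of the short gaps. Transcripts across a longer gap have further to go, so the same was measured at a fixed distance of 300 nt past the gene. By that measure 21.7% of short tandem pairs gained (interval 17.6 to 26.3%), 23.1% of the longer tandem pairs (20.2 to 26.2%) and 18.2% of all coding genes, so short gaps did not stand apart from long ones. Convergent genes with a gap of 0 to 300 nt, whose next gene lies on the other strand, gained in 6.84% of 980 cases (5.34 to 8.60%). Their mean share past 300 nt was 2.58% in the double depletion and 0.163% in Bdp1AA, against 15.6% and 4.94% in the short tandem pairs. Ends past 300 nt were thus a feature of tandem neighbours of either gap length more than of convergent ones.

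**Figure D5:**
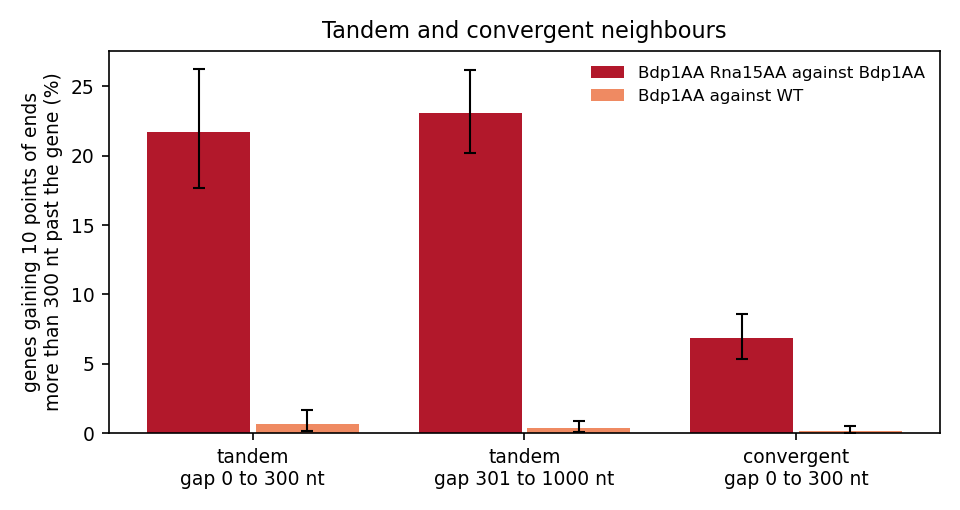
Share of genes that gained at least 10 percentage points of ends more than 300 nt past the gene (y axis, %), for tandem pairs with short and long gaps and for convergent genes, with exact 95% intervals of the gene counts; dark bars are the double depletion against Bdp1AA and light bars Bdp1AA against WT. The dark bars are 21.7%, 23.1% and 6.84%, and all light bars are below 1%.

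Bdp1AA against WT left the ends of these genes almost where they were. Of 619 pairs, 3 gained and 5 lost at least 10 percentage points of ends inside or past the downstream gene, against 0.248% and 0.298% of all same-strand neighbours. The mean share that reached it was 12.4% in both groups (difference 0.03 percentage points), and 569 pairs changed by less than 1 percentage point. Summed over reads the difference was −0.74 percentage points, with 9.61% in Bdp1AA and 10.4% in WT, and it turned to 0.29 without RPL21A, HYP2 and MIN10. The mean end moved downstream by at least 20 nt in 14 pairs and upstream in 6, against 1.26% and 0.776% of all coding genes. Past the fixed 300 nt, 4 pairs gained, against 0.548% of all coding genes. Downstream genes were higher in 37 and lower in 41 of 642, against 6.23% and 9.72%, and not centred in 19 and 128.

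The largest gain was at CUS2, whose product acts in the U2 snRNP. The gene lies 92 nt before a coding feature absent from the reference, with the tRNA gene SUF6 on the opposite strand between its end and the end of that feature. It had 51 reads before, 89 inside and 107 past the feature in the double depletion, 100, 72 and 64 in Bdp1AA, and 509, 39 and 0 in WT. The share that reached the feature was 79.4%, 57.6% (interval 51.0 to 64%) and 7.12% (5.11 to 9.60%) in that order, so the intervals did not overlap and Bdp1AA lay between. The other two pairs had a tRNA gene up to the end of the downstream gene. GTR2 ended inside YGR164W with 20 of 20 reads in the double depletion, 478 of 478 in Bdp1AA and 758 of 786 in WT, and YHR145C had no listed end. The other gains were small in reads: LGE1, which acts in ubiquitination of histone H2B, had 18 of 138 reads past LCL1 in Bdp1AA and 0 of 215 in WT, and the splicing factor gene PRP21 had 23 of 96 reads inside ECM25 in Bdp1AA and 23 of 173 in WT. YKE4, at 8.66% in Bdp1AA and 0% in WT, and MED6, at 25.7% and 17.6%, were next and below the limit. Of the 5 losses, 1 was a pair of features absent from the reference. The others were STN1, with 0 of 68 reads in Bdp1AA and 24 of 124 in WT inside RRP8, and YPL108W, SNP1 and RIC1, with 0%, 22.4% and 0% in Bdp1AA and 16.8%, 37.1% and 13.0% in WT. SPT23, at 28.9% in Bdp1AA and 38.5% in WT, was next and below the limit. Leaving the minimum as deposited gave 11 gains in place of 3, and with at least 200 reads there was 1 gain and 1 loss.

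The double depletion against WT shares its libraries with both comparisons above. It gave 86 gains and 0 losses among 380 pairs, against 16.2% and 0% of all same-strand neighbours. Past the fixed 300 nt 81 pairs gained, against 18.1% of all coding genes. There were 174 shifts downstream and 3 upstream, against 42% and 0.769% of all coding genes, and 122 downstream genes higher and 103 lower of 441, against 24.4% and 25.5%, or 58 and 186 not centred.

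In some pairs the upstream gene reached the downstream gene in every group. HYP2, which encodes the translation factor eIF5A, lies 29 nt before MTC7, and all of its 50383 reads in the double depletion, 49305 in Bdp1AA and 75171 in WT ended inside or past MTC7. Of these, 828 ended past MTC7 in the double depletion and none in the other groups. RPL21A, whose junction is printed above, had all but 15 of 12938 reads past the next feature in the double depletion, all but 26 of 41455 in Bdp1AA and all but 33 of 75109 in WT, with its most used end 103 nt past the gene in each group. The next feature there is 75 nt long and absent from the reference. PMP1, a small regulator of the plasma membrane proton pump, and FKS1, a subunit of glucan synthase, also had all their listed ends inside or past the next gene in every group. CTR2, itself the downstream gene of ENO2, ended inside or past YHR175W-A with 2129 and 1955 reads in the double depletion, 506 and 0 in Bdp1AA, and 495 and 0 in WT. For MIN10 and YGL188C-A every listed end lay past the next gene, RPL29 and RPS26A. In the double depletion 97.3% and 100% of these reads lay within 25 nt of a WT end of the next gene. They made up 1.47% and 4.24% of the ends of those genes in the double depletion, 0.147% and 2.51% in Bdp1AA, and 8.88% and 1.86% in WT.

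Pairs whose downstream feature is absent from the reference (52) ended inside it far more often: a mean of 58.1%, 58.1% and 56.6% of ends in the double depletion, Bdp1AA and WT, against 3.82%, 4.33% and 4.53% where both genes are in the reference. Of the 87 gains, 79 were among the 339 compared pairs with both genes in the reference.

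Lists of genes were set beside these counts, read against the same 16.5%. Of 14 ribosomal protein genes that are upstream genes, all of them compared, 2 gained in the double depletion against Bdp1AA and the median change was 1.25 percentage points, against 0 over all pairs. RPL13B had 2683 of 8191 reads inside YMR141C in the double depletion (32.8%), against 17 of 37337 in Bdp1AA and 24 of 73507 in WT. RPL22B had 253 of 1413 reads past MOB2, a kinase activator gene, in the double depletion (17.9%), against 0 of 1736 in Bdp1AA and 0 of 2914 in WT. Of the other 12, RPS10B, RPL29 and RPL11B had the highest shares in the double depletion, at 5.41%, 5.37% and 5.22%, and RPL21A was at 100% in all groups. Of 21 genes of cleavage and polyadenylation 3 were upstream genes: PTA1 gained, CLP1 had 0 of 99 reads inside or past APC5 in the double depletion, and CFT2 was not listed there. MTR4, the only one of 13 termination and decay genes, had 0 of 259 reads inside or past CHM7. Of 4 Pol III genes only RPO31 could be compared, with 0 of 136 reads inside or past TRS33 in the double depletion, while TFC7 had all of 46 reads inside or past YOR111W, too few for the comparison.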

How the data were processed

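The tables hold 3′ end positions per gene from direct RNA sequencing of 3 groups of 3 libraries. Per the file headers each row gives a gene, a position and a number of 3′ ends, deposited as a scaled signal with the libraries of a group pooled in 1 column. The build is R64, per the submitters' processing notes. Neither aligner nor read assignment nor scale is given in the sources used here. Dividing by 0.07583 in the double depletion, by 0.05096 in Bdp1AA and by 0.04293 in WT gave whole numbers for 100% of values (tolerance 0.001), which were taken as reads. Totals were 7740285, 16661847 and 24559388 reads in that order. Tables list positions from 11, 2 and 11 reads, so a common minimum signal of 0.83413 was set, which kept 100%, 94.4% and 98.1% of the signal past genes. Distances were computed from the coordinates, with minus-strand ends moved by 1 base after a check of the base composition at the ends.

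The planned design allowed for counts per library. With pooled columns no test was run, and Clopper-Pearson 95% intervals hold counting error alone. Those of a share of pairs treat pairs as independent. Of 6076 coding features, 5737 are in the reference and 5728 have the same coordinates there. The 339 others were counted and, as the rule for names provides, not named. A pair was compared with at least 60 reads in both groups and called from 10 percentage points. A gene's level was centred on the median gene, which removed −0.34 (double depletion against Bdp1AA), −0.51 (Bdp1AA against WT) and −0.86 (double depletion against WT) in log2. Shifts were called from 20 nt. The pairs named are the 10 largest gains in the double depletion against Bdp1AA, up to 5 largest losses there and 5 largest gains and losses in Bdp1AA against WT, the 5 with the highest WT share, most reads past the downstream gene or most WT reads, pairs with a tRNA gene, and listed genes that were called. The pairs and the lists were chosen with earlier results of these data known. The procedure was tested on simulated data. Python 3.11.15, pandas 2.3.3, numpy 2.4.6 and scipy 1.17.1 were used.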

Additional observations from a re-analysis of the deposited data

How the results depend on the processing

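No paired analysis was possible because each table holds 1 pooled column per group, and for the same reason leaving out each library was not run. Differences of summed shares are in percentage points, and values follow the order double depletion against Bdp1AA, Bdp1AA against WT, double depletion against WT. The main differences were 8.00, −0.74 and 6.63. Against Bdp1AA and against WT, gains in the double depletion outnumbered losses under every alternative run. Settings that moved a result follow, and the cause was not tested except where stated. With the minimum as deposited, the Bdp1AA against WT difference was −0.43 with 11 gains, 59 downstream and 11 upstream shifts, the double depletion had 3 upstream shifts against Bdp1AA, and its difference against WT was 6.74. With the common minimum doubled, the double depletion differed by 7.51 from Bdp1AA and 6.10 from WT, with 1 loss in each, 113 and 114 downstream and 0 upstream shifts in each, and Bdp1AA against WT had 3 losses and 4 downstream shifts. With at least 20 reads the double depletion had 135 gains and 1 loss against Bdp1AA, and 138 and 2 against WT. With at least 200 reads the gains were 43, 1 and 42, with 1 loss in Bdp1AA against WT. A limit of 5 percentage points gave 1, 9 and 3 losses and 8 gains in Bdp1AA against WT, and one of 20 gave 1 gain and 0 losses there. Without positions also listed under the downstream gene, which removes all ends past it and, on the minus strand, all ends inside it in WT but few in the depletions, differences were 5.88, 0.64 and 6.85, gains 21, 20 and 26, and Bdp1AA against WT had 3 losses. Differences were 8.62, −0.43 and 8.28 with neighbours from the reference, 8.65, −0.42 and 8.33 without features absent from it, 16.7, −1.81 and 13.3 for gaps up to 200 nt, 10.9, 0.029 and 10.8 as a mean over pairs, and 5.77, 0.29 and 5.38 without RPL21A, HYP2 and MIN10, an alternative added after the data were seen. Without overlapping features the double depletion differed by 4.86 from Bdp1AA and 3.33 from WT. Gaps up to 200 nt, which hold fewer pairs, left 26 and 25 gains in the double depletion against Bdp1AA and WT and 3 losses in Bdp1AA against WT. A minimum on the signal gave 3 losses there. By the median position the downstream shifts were 86, 1 and 86, with 3 upstream in the double depletion against Bdp1AA and 2 in Bdp1AA against WT. From 50 nt, Bdp1AA against WT had 8 downstream shifts and 1 upstream, and the double depletion against WT 1 upstream. Not centred, downstream genes were higher in 19 and lower in 128 in Bdp1AA against WT, and 58 and 186 in the double depletion against WT. From positions listed under a single gene 69 were higher in the double depletion against Bdp1AA and 56 in Bdp1AA against WT, and TRX2, ARL3 and MRPL49 turned to log2 ratios of −0.35, −0.060 and −0.42. That setting left a position out only in the group where it was shared, so the groups were not compared at the same positions. With the minimum doubled, CUS2 differed by 88.9 percentage points in Bdp1AA against WT and by 0 in the double depletion against Bdp1AA, and LGE1 by 0 in Bdp1AA against WT. Of the values of single pairs and the medians of downstream genes, 104 moved, CUS2 and LGE1 among them, and 423 did not. Only called values, as for TRX2, ARL3 and MRPL49, were counted as turned in sign, and some smaller ones turned as well. In Bdp1AA against WT, MED6 went from 8.10 to −17.6 and SPT23 from −9.56 to 6.34 with the minimum doubled. YND1 went from −8.26 to 3.91 there with the minimum as deposited.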
